A study of Moesziomyces aphidis with 9 samples.

Results

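Short introns whose splice sites compete were examined in Moesziomyces aphidis, that is, introns of at most 1000 nt that share a donor (the 5′ splice site) or an acceptor (the 3′ splice site) with another intron. An intron was kept when at least 10 reads in all spanned it in the 6 main libraries, and kept introns that had an end in common with another kept intron on the same scaffold and strand were the members. Of 2925 kept introns, 159 (5.44%) were members, and they carried 5.59% of the reads across kept introns. Of these, 98 shared their donor alone, 51 shared their acceptor alone and 10 shared both ends with others. They met at 84 sites, of which 54 were donors joined to competing acceptors and 30 were acceptors joined to competing donors. The members were thus chosen by reads summed over both media, and their read totals and the counts of sites are descriptions and were not tested.

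Moesziomyces aphidis is a yeast-like smut relative that secretes mannosylerythritol lipids, and its strain DSM70725 was cultured at 30 °C in a medium of yeast extract for 114 h. One group of 3 libraries came from cultures with 40 g/l glucose and a further 70 g/l soybean oil, which the labels call induced and filamentous. The other group of 3 came from cultures with 40 g/l glucose alone, labelled as not induced blastospores, so that all groups had glucose, and medium and cell form differed together. These 6 libraries were unstranded, with single reads of 50 bp. A paired-end library with 95 bp reads carries the number of soybean oil replicate 2, and the 2 stranded libraries, 1 with soybean oil and 1 with glucose, carry the number of replicate 1 of their medium. They were used as values beside the groups and entered no group. The sample titles mark the replicates as br1 to br3, and the labels do not state that these were cultured separately. The p-values therefore cover the spread among these libraries, which may be technical. The lists held 173636 to 224962 junction reads with soybean oil and 163851 to 192243 with glucose, and 2532134 in the paired-end library. The junction lists give positions and the gene files give identifiers without positions, so no intron here is tied to a gene.

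Splicing removes an intron by joining the donor at its start to the acceptor at its end. When a donor can join several acceptors, or an acceptor several donors, one gene yields transcripts that differ by the stretch between the competing ends, and a stretch of whole codons leaves the reading frame as it was. Closely spaced acceptors, one codon apart, are a frequent form of such variation in animals and plants. In the related smut Ustilago maydis, a choice between splice sites is known to give a glycolytic enzyme, glyceraldehyde-3-phosphate dehydrogenase, a second form that is sent to peroxisomes.

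Several facts about the lists bear on what counts as competition and are given before the results. The smallest intron in any list was 50 nt and the shortest member 54 nt, so a competing intron under 50 nt is not analysed here. Both ends of a competing pair were listed in all 6 libraries at only 18 of the 84 sites, and a single library listed reads for both at 58, 58 and 60 sites with soybean oil and at 61, 57 and 46 with glucose. An intron missing from a list counted as 0 reads, which allows up to 3 reads by counting error alone. Of 67 members with at least 20 reads in a soybean oil library, 1 was missing from another soybean oil list (1.49%), and of 68 with that many on glucose 6 were missing from another glucose list (8.82%). Among the other kept introns those shares were 2.62% with soybean oil and 3.25% with glucose.

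Some linked members had equal numbers of reads in library after library. On scaffold 11 the introns at 250506 to 250576 and 250510 to 250580 (plus strand) are both 71 nt long and lie 4 nt apart at each end. They share no end with each other and are linked through another intron, from 250506 to 250580, that shares one end with each. Each had 7, 10 and 5 reads with soybean oil and 4, 12 and 3 on glucose, and each had 141 in the paired-end library. On scaffold 1 the introns at 388973 to 389198 and 389081 to 389198 (minus strand) both had 0 reads in each soybean oil library and 3, 2 and 8 on glucose. On scaffold 2, introns of 161 and 78 nt that share the donor at 328674 (minus strand) both had 20, 33 and 24 reads with soybean oil, while on glucose the longer had 10, 14 and 6 and the shorter 10, 0 and 6. The paired-end library separated that last pair, with 35 reads for the longer intron and 172 for the shorter. On the same scaffold, 5 introns of 54 or 62 nt lay in steps of 8 nt between 291774 and 291843 (minus strand), with 0 to 5 reads in any of the 6 main libraries. The paired-end library listed the 3 introns of 54 nt there with 7 reads each and neither of the 62 nt introns. Whether the same reads were counted more than once was not tested.

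The anchor, the longest stretch of any read that matched on the shorter side of an intron, also set some members apart. In 7 members it was at most 12 nt, and the paired-end library listed 0 of these 7. It listed 20 of the 23 members with anchors of 13 to 30 nt and 126 of the 129 with longer ones. The 7 introns had 10 to 27 reads in all and led no site, and they were 94 to 955 nt long. An example is the intron at 686700 to 687163 of scaffold 20 (plus strand), which had 0, 0 and 0 reads with soybean oil and 0, 27 and 0 on glucose. Its competitor at the same donor, which ends at 686778, had 91, 116 and 81 reads with soybean oil and 115, 89 and 122 on glucose. The rare intron thus rested on a single library.

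**Figure D1:**
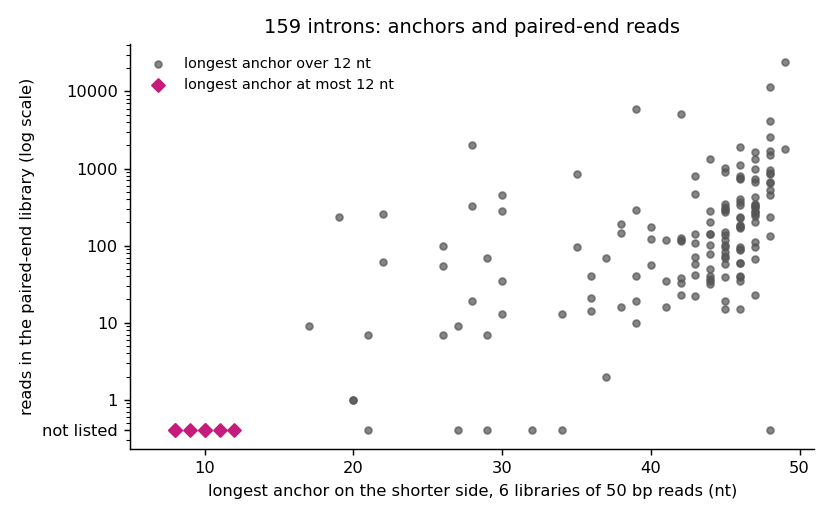
The longest anchor on the shorter side of each of the 159 introns in the 6 main libraries (horizontal axis, nt) is plotted against its reads in the paired-end library (vertical axis, log scale, with introns not listed at the bottom). All 7 introns with anchors of at most 12 nt (diamonds, some of which overlie each other) lie in the row of introns not listed.

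The competing ends lay from 2 to 874 nt apart, with a median of 47 nt, and small shifts fell on particular distances. Of the 54 donors with competing acceptors, 9 (16.7%) had acceptors 3 nt apart, the most frequent shift. Shifts of 4 and 8 nt were found at 2 such donors each, and shifts of 2, 7, 10 and 12 nt at 1 each. Donors that shared an acceptor were never 3 nt apart, and at 5 of 30 sites (16.7%) they were 4 nt apart, with 2 further sites at 8 nt and 1 at 6 nt. These sites are not all separate cases. All sites with 8 nt shifts, of both kinds, lie in the scaffold 2 group between 291774 and 291843 described above. The donor at 250506 and the acceptor at 250580, both with 4 nt shifts, belong to the linked introns of scaffold 11 described above. The lists of the paired-end library, which did not choose the members but hold many of the same introns, had the same most frequent shifts. With the same limits of 10 reads and 1000 nt, that library alone gave 162 donors with competing acceptors, of which 19 had a shift of 3 nt. It also gave 91 acceptors with competing donors, of which 12 had a shift of 4 nt and 0 one of 3 nt. No pair in either set was 1 nt apart, and whether the aligner could list such a pair was not tested.

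**Figure D2:**
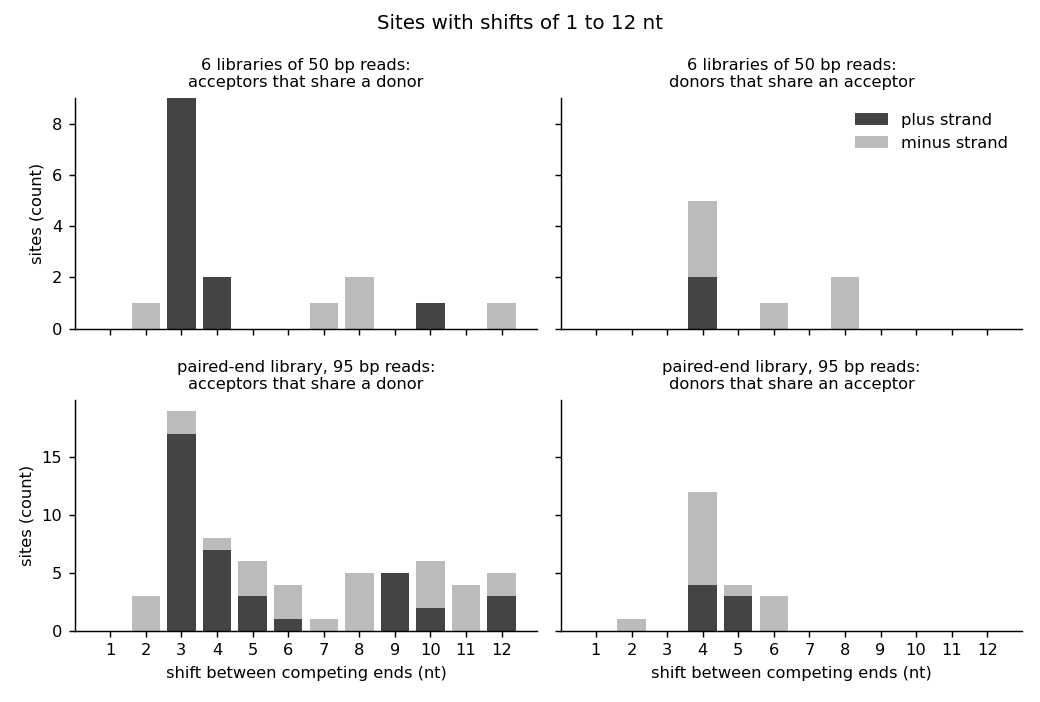
Bars count the sites with each shift from 1 to 12 nt (horizontal axis), in the 6 main libraries (top) and in the paired-end library (bottom), for competing acceptors (left) and competing donors (right), with plus-strand sites dark and minus-strand sites light. Competing acceptors peak at 3 nt with 9 and 19 sites, competing donors at 4 nt with 5 and 12, and the acceptors 3 nt apart lie mostly on the plus strand.

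Shifts that are multiples of 3 nt, which keep the reading frame where the stretch lies in coding sequence, made up 36 of the 84 sites (42.9%), with 27 and 21 sites leaving a remainder of 1 and 2 nt. By kind they were 24 of 54 for competing acceptors and 12 of 30 for competing donors. Among shifts of 1 to 12 nt, competing acceptors kept the frame at 10 of 17 sites and competing donors at 1 of 8. The less used introns took a median of 16.9% of a site's reads where the shift was a multiple of 3 and 19.6% where it was not. Whether the stretches are coding is not known from the files.

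All 9 donors with acceptors 3 nt apart lay on the plus strand, on 7 scaffolds, while the plus strand held 89 of the 159 members and 1441 of the 2925 kept introns. In the paired-end library 17 of the 19 such sites were on the plus strand. The libraries that chose the members do not mark strand, and a part of the alignment in this difference, or in the 3 nt pairs themselves, was not tested. The acceptor nearer the donor was the more used at 7 of the 9 sites. The less used acceptor of each pair, whether nearer or farther, took 1.72% to 45.0% of the reads, with a median of 10.5%. The paired-end library listed that acceptor at all 9 sites, at 1.82% to 44.1%. The most read of these donors, at 232445 of scaffold 23, joined 232525 with 90, 96 and 62 reads with soybean oil and 162, 116 and 168 on glucose. It joined 232522, the nearer acceptor, with 15, 0 and 5 reads with soybean oil and 31, 28 and 37 on glucose. The nearer acceptor therefore took 14.3%, 0% and 7.46% with soybean oil and 16.1%, 19.4% and 18.0% on glucose. The groups did not overlap, but the test of the site's usage described further on missed the threshold (edgeR adjusted p 0.820). The 50 bp library of soybean oil replicate 2 listed no read for the nearer acceptor, while the paired-end library of that number gave it 13% (95% Wilson interval 10.9 to 15.4). Intervals here cover counting error only. Reads to the farther acceptor fell with soybean oil, by 0.997 on the log2 scale (SE 0.22, edgeR adjusted p 0.0293), a call kept in 2 of 6 fits with a library left out and lost with the paired-end library in place of soybean oil replicate 2 (edgeR adjusted p 0.149).

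The donor at 46978 of scaffold 17 (plus strand) was the most evenly used of the acceptor pairs 3 nt apart. It joined 47167 with 6, 0 and 6 reads with soybean oil and 27, 35 and 42 on glucose. It joined 47170 with 2, 8 and 1 reads with soybean oil and 31, 30 and 23 on glucose. Both introns fell with soybean oil, with log2 fold changes of -3.19 (SE 0.75, edgeR adjusted p 0.0372) and -3.07 (SE 0.51, edgeR adjusted p 0.0101). With any library left out, the adjusted p of the second ran up to 0.0530 and it was called in 5 of 6 fits, while the first was called in 1. With soybean oil, 7 to 8 reads a library left the share of the farther acceptor between 14.3% and 100%. On glucose it was 45.0% ± 9.09 (SD, n = 3).

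Among the donor pairs 4 nt apart, the acceptor at 13369 of scaffold 20 (plus strand) had most reads. Its intron from 13311 rose with soybean oil, with 744, 872 and 803 reads against 90, 106 and 73 on glucose, a log2 fold change of 3.04 (SE 0.17, edgeR adjusted p 0.000197). The donor at 13307 had 10 reads in soybean oil replicate 1 and was missing from the other 5 lists, while the paired-end library held 100 reads for it beside 11548 for the main donor. On scaffold 19 the acceptor at 658910 (minus strand) was joined to donors at 659136 and 659132. The donor at 659136 had 116, 98 and 89 reads with soybean oil and 27, 23 and 25 on glucose, a rise of 1.89 on the log2 scale (SE 0.22, edgeR adjusted p 0.00236). The paired-end soybean oil library held 132, or 52.1 reads per 1000000 junction reads (RPM), below the 135 to 153 of the glucose libraries, and with it in place of soybean oil replicate 2 the call was lost (edgeR adjusted p 0.483). The donor at 659132 had 26, 29 and 29 reads with soybean oil and 8, 0 and 0 on glucose. Its share was 21.9% ± 3.23 with soybean oil and 7.62% ± 13.2 on glucose (SD, n = 3), and in glucose replicate 1, the only glucose library that listed it, it was 22.9%. Both lists of the stranded glucose library held that donor, with 18 and 13 reads. The acceptor at 389312 of scaffold 10 (minus strand) had its donors at 389439 and 389435 used almost evenly, with 31 and 29 reads in all. The donor at 389435 took 22.2%, 28.6% and 50.0% with soybean oil and 53.8%, 53.8% and 100% on glucose, without overlap but at 4 to 14 reads a library, and the site was not called (edgeR adjusted p 1). The donor of scaffold 2 at 740725 (plus strand), with acceptors 4 nt apart, had 3031 reads, with a second acceptor used at a low level. It joined 741112 with 482, 519 and 557 reads with soybean oil and 521, 504 and 377 on glucose, and 741116 with 16, 13 and 15 with soybean oil and 14, 13 and 0 on glucose.

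Across sites, the less used introns took between 0.333% and 50.0% of the reads of their site, with a median of 19.4%. Sites with a share of at least 40% numbered 16, and sites with at most 5% numbered 15. The 16 include sites described above for equal or nearly equal reads. These are the sites of the scaffold 2 group between 291774 and 291843, the scaffold 2 donor at 328674 and the scaffold 1 donor at 389198. The last, with 13 reads for each intron, gives the 50.0%. The leading intron was the same in each library that had reads at 59 sites. At 20 sites another intron led in at least 1 library, of which 7 had 100 reads or more, and the remaining 5 sites had ties. Longer shifts came with low and high shares alike. The median share was 19.6% for shifts of 1 to 12 nt, 18.9% for 13 to 60 nt and 18.0% for over 60 nt.

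**Figure D3:**
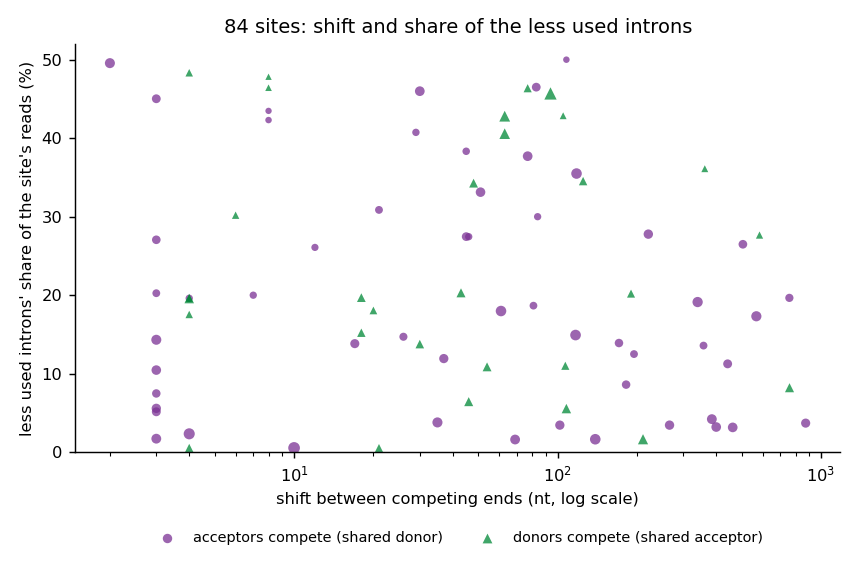
Each point is one of the 84 sites, with the distance between the competing ends (horizontal axis, log scale, nt) and the share of the site's reads taken by the less used introns, over the 6 main libraries (vertical axis, percent). Larger marks have more reads, and low and high shares occur at short and long shifts alike, with class medians of 18.0% to 19.6%.

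Members were longer than other kept introns, with a median of 131 nt (quartiles 84 and 316.5) against 85 nt (quartiles 74.25 and 106) for the 2766 others. This held for introns that led their site, with a median of 128 nt over 80 introns, and for the 79 that led none, with 169 nt. The members' median was 56 reads against 138 for the others, and 51.6% of members were in all 6 lists against 79.7% of the others. Members that led a site had a median of 149.5 reads, and 77.5% were in all 6 lists. Those that led none had 23 reads and 25.3%, where leading is itself set by reads. The paired-end library listed 146 of 159 members (91.8%) against 99.5% of the others, and a list of a stranded library 120 members (75.5%) against 90.7%. No test was run on these, since the rule used length and reads and introns are not replicates.

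The most read site was the acceptor at 25515 of scaffold 17 (minus strand), which joined donors at 25698 and 25604, 94 nt apart. The longer intron had 1418, 1708 and 1347 reads with soybean oil and 1444, 1383 and 1446 on glucose. The shorter had 1174, 1418 and 1109 reads with soybean oil and 1248, 1170 and 1242 on glucose. The shorter intron took 45.3% ± 0.105 of the reads with soybean oil and 46.1% ± 0.273 on glucose (SD, n = 3). The media thus differed by less than 1 percentage point (-0.86), although the values did not overlap, and the site was not called (edgeR adjusted p 1). The paired-end library gave a different split, with 23817 reads for the longer intron and 5867 for the shorter, or 19.8% (95% Wilson interval 19.3 to 20.2). The stranded library of the same medium gave 196 and 170 reads in one list and 179 and 157 in the other, close to the unstranded 50 bp libraries.

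A similar gap between 50 bp and paired-end reads was seen on scaffold 24 (plus strand), where 3 introns met between 104365 and 104488. The intron across the whole stretch, of 124 nt, had 169, 246 and 184 reads with soybean oil and 230, 184 and 223 on glucose. The introns at 104365 to 104427 and 104428 to 104488 lie end to end, with 0 nt between them, the only such case among the 2925 kept introns. The left intron had 43, 53 and 36 reads with soybean oil and 46, 43 and 50 on glucose. The right intron had 126, 185 and 143 with soybean oil and 180, 127 and 164 on glucose. In the 50 bp libraries the right intron took 43.1% ± 0.538 of the reads at its acceptor with soybean oil and 42.4% ± 1.53 on glucose (SD, n = 3). In the paired-end library it took 72.3% (95% Wilson interval 68.6 to 75.6), with 448 reads against 172 for the whole stretch, and the left intron was not listed. The anchors of these introns stayed at 40, 27 and 30 nt in the 50 bp reads. How read length bears on these splits was not tested.

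Other much read sites of the same scaffold had paired-end values within the range of the 6 main libraries. The acceptor at 140177 (plus strand) joined donors at 139864 and 139927, 63 nt apart. The second donor took 42.8%, 40.6% and 46.0% of the reads with soybean oil and 38.7%, 40.0% and 35.5% on glucose, and 38.5% (95% Wilson interval 36.5 to 40.6) in the paired-end library. The groups of 50 bp libraries did not overlap, with soybean oil above glucose, but the difference of 5.07 percentage points was not called (edgeR adjusted p 0.579). The paired-end soybean oil value lay below each 50 bp soybean oil library and within the glucose range. Downstream, the donor at 140351 joined acceptors at 140791 and 140674, 117 nt apart. The nearer acceptor took 14.4%, 18.8% and 20.7% with soybean oil and 14.4%, 7.50% and 10.1% on glucose (edgeR adjusted p 0.579), and the paired-end value was 19.6% (95% Wilson interval 18.0 to 21.3). On scaffold 3 (plus strand) the donor at 171573 joined 172048 and 172166. The farther acceptor took 36.9% ± 5.69 with soybean oil and 34.9% ± 2.84 on glucose (SD, n = 3), values that overlapped. The donor at 1846788 of scaffold 17 (plus strand) joined 1847452 and 1846884, 568 nt apart, and the nearer acceptor took 16.1%, 11.8% and 14% with soybean oil and 25.9%, 14.3% and 21.7% on glucose, also with overlap.

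Sites with a rarely used second intron were well read too. The donor at 240470 of scaffold 19 (minus strand), with acceptors 35 nt apart, gave the rarer one 4.69%, 2.15% and 6.64% with soybean oil and 2.42%, 2.08% and 3.20% on glucose. The donor at 222124 of scaffold 15 (plus strand), with acceptors 139 nt apart, gave the rarer one 0%, 3.95% and 4.95% with soybean oil and 0%, 1.38% and 0.844% on glucose. The media overlapped at both. Among competing donors 43 and 46 nt apart, the second donor of the acceptor at 561310 of scaffold 12 (minus strand) had 14, 14 and 13 reads with soybean oil and 0, 11 and 2 on glucose. That of the acceptor at 1945458 of scaffold 2 (plus strand) had 2, 3 and 0 reads with soybean oil and 2, 5 and 5 on glucose, so that neither share could be told between media at this depth. Of the rare introns with short anchors, those of scaffolds 6 and 10 each had all their reads, 12 and 17, in a single library, beside competitors with 454 to 912 and 61 to 113 reads a library. That of scaffold 13 had 0, 7 and 3 reads with soybean oil and 0 in each glucose library.

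Whether the medium changed the choice was tested with edgeR's differential splicing test, fitted on introns of any length with at least 10 reads and adjusted over 244 sites. It called 2 of the 244 sites (0.820%), neither of which was a site of these short introns, and 0 of the 84. An unadjusted p under 0.05 was found at 2 of the 84 and at 17 of the 244. The limma voom test of the same sites called 1 of the 84 and 2 of the 244. It had an unadjusted p under 0.05 at 6 of the 84 and at 14 of the 244. Groups without overlap were seen at 8 of the 73 sites with reads in all 6 libraries, 3 with a higher share of the less used introns with soybean oil and 5 with a lower one. Over sites of any length the background was 6.73% (14 of 208). At 3 against 3, an exact permutation test of a single site cannot go below 0.1.

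**Figure D4:**
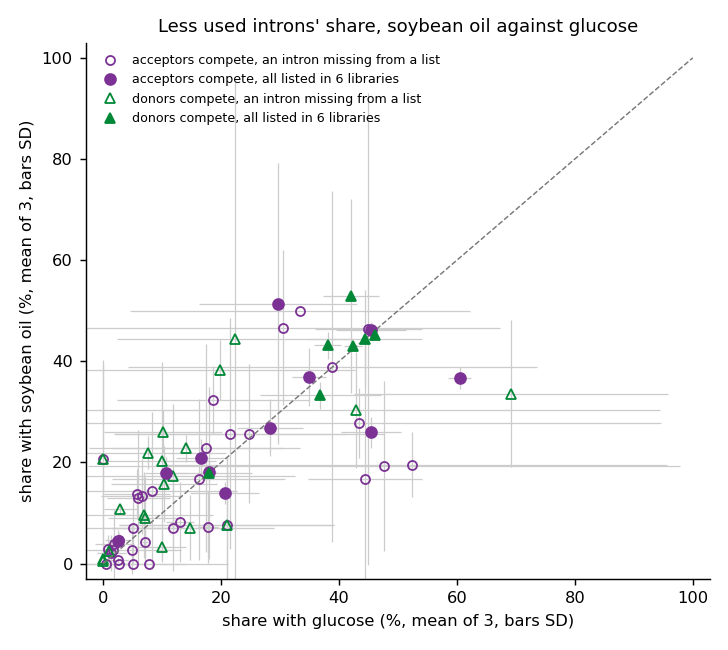
Mean share of the less used introns at 73 sites with reads in all 6 libraries, with soybean oil (vertical axis, percent) against glucose (horizontal axis, percent), where bars are SDs of 3 libraries and the dashed line marks equal shares. Filled marks, where each intron was listed in 6 libraries, include the site farthest below the line among them, at 36.8% with soybean oil and 60.5% on glucose, and many open marks have wide bars.

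The site with the smallest p among those listed in full was the donor at 177972 of scaffold 23 (minus strand), whose acceptors at 177445 and 177447 lie 2 nt apart. The nearer acceptor, 177447, took 37.9%, 34.2% and 38.1% of the reads with soybean oil and 61.4%, 61.8% and 58.3% on glucose. The planned test gave it an edgeR adjusted p of 0.579 (unadjusted p 0.0466), and limma voom an adjusted p of 0.0128. The adjusted p ran from 0.0128 to 1 over the alternatives. Of the 2 acceptors, a change in reads was called at 177447 alone. It had 44, 50 and 40 reads with soybean oil and 105, 89 and 67 on glucose, a fall of 1.08 on the log2 scale (SE 0.16, edgeR adjusted p 0.00719). That call was lost with the paired-end library in place of soybean oil replicate 2 (edgeR adjusted p 0.166), although its 91.6 RPM of junction reads were also below each glucose library. The acceptor at 177445 had 72, 96 and 65 reads with soybean oil and 66, 55 and 48 on glucose. Its log2 fold change of 0.32 (SE 0.14, edgeR adjusted p 0.207) was not called. The stranded lists, which took no part in the choice, held 0 and 3 reads at 177447 beside 19 and 18 at 177445 with soybean oil. On glucose they held 66 and 56 at 177447 beside 47 and 43 at 177445. The paired-end soybean oil library gave 40.8% (95% Wilson interval 36.8 to 44.9). The stranded pair had the same direction, and it carries the number of replicate 1, so it may not be a further culture.

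The other large difference among fully listed sites without overlap was at the donor at 155683 of scaffold 12 (plus strand), with acceptors at 155839 and 155788, 51 nt apart. The nearer acceptor took 23.5%, 29.3% and 25% with soybean oil and 44.1%, 41.1% and 51.1% on glucose, without overlap, and 28.7% (95% Wilson interval 25.9 to 31.6) in the paired-end library. The stranded lists held a smaller difference, with 21.4% and 12.1% with soybean oil and 24.4% and 19.7% on glucose. The site was not called by edgeR (adjusted p 0.579) or limma voom (adjusted p 0.180). Reads to the farther acceptor rose, with 65, 82 and 75 with soybean oil against 33, 43 and 23 on glucose, a log2 fold change of 1.04 (SE 0.23, edgeR adjusted p 0.0315). That call was kept in 1 of the 6 fits with a library left out, where the adjusted p reached 0.102, and was lost with the paired-end library (edgeR adjusted p 0.278). Reads to the nearer acceptor were 20, 34 and 25 with soybean oil and 26, 30 and 24 on glucose.

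**Figure D5:**
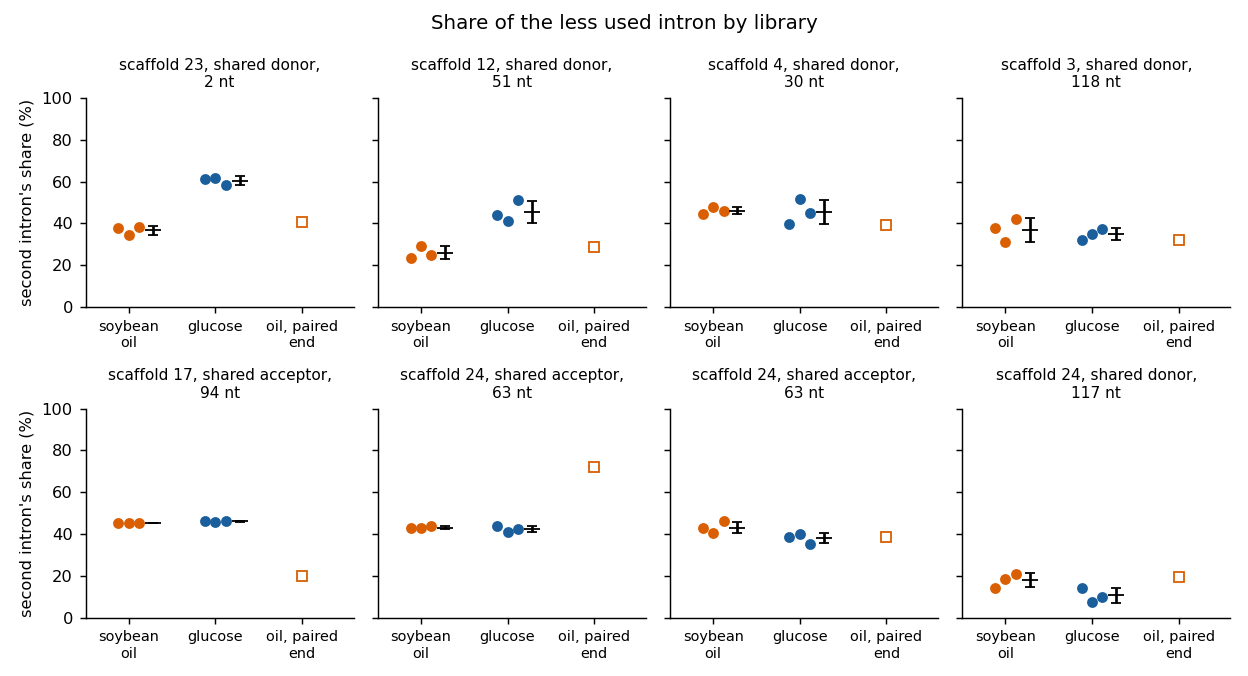
Share of the less used intron (vertical axis, percent of the site's reads) at 8 sites, with 1 point per library for soybean oil (orange) and glucose (blue), mean and SD as black bars, and the paired-end soybean oil library as an open square. At the scaffold 23 donor the soybean oil points lie at 34.2% to 38.1% and the glucose points at 58.3% to 61.8%, and the paired-end square departs most from the soybean oil points at the 94 nt site of scaffold 17 and the first 63 nt site of scaffold 24.

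A site at which the 6 main lists of the media held different introns lay on scaffold 16. The donor at 398109 of scaffold 16 (plus strand) joined 398318 with 90, 47 and 67 reads with soybean oil and 0, 0 and 0 on glucose, a rise that edgeR called (adjusted p 0.00443). It joined 398395, 77 nt farther, with 0, 0 and 0 reads with soybean oil and 205, 0 and 132 on glucose, a difference that was not called (edgeR adjusted p 0.0945). Each medium therefore had a single listed intron, and glucose replicate 2 had neither. The paired-end soybean oil library listed both, with 234 reads to 398318 and 1990 to 398395. That is a share of 10.5% for the intron that was the sole one in the 3 main soybean oil lists. The stranded soybean oil lists held 0 and 3 reads to 398395 and 0 and 0 to 398318, and those of glucose 2 and 0 to 398395 and 0 and 0 to 398318. Soybean oil libraries thus held reads to both acceptors. The site had the smallest p of the 84 (edgeR unadjusted p 0.0113, adjusted p 0.579), and it was the member called without glucose replicate 2 (edgeR adjusted p 0.0288). The soybean oil libraries differ among themselves here, and the cause was not tested.

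In reads per intron, edgeR called 15 of the 159 members, 7 higher and 8 lower with soybean oil. This is 9.43%, against 12% of all 3199 introns tested, with 168 higher (5.25%) and 216 lower (6.75%). Fewer cells and less RNA per cell cannot be told apart in such bulk samples. The called members lay in 13 of the 74 groups of linked introns, and at the 2 sites where both introns were called they moved the same way. With the paired-end library in place of soybean oil replicate 2, 4 of the 15 calls were kept and 11 lost. Scaled to the junction reads of each library, the paired-end value lay on the soybean oil side of each glucose library at 10 of the 15, within the glucose range at 2 and beyond it in the opposite direction at 3. The calls that were kept were those of 31000 to 31077 and 13311 to 13369 on scaffold 20, 398109 to 398318 on scaffold 16 and 46978 to 47170 on scaffold 17. The largest fall was at the intron from 31000 to 31077 of scaffold 20 (plus strand), with 1, 3 and 3 reads with soybean oil against 2798, 2748 and 1193 on glucose, a log2 fold change of -9.95 (SE 0.49, edgeR adjusted p 9.23e-05). Its competitor, which ends 10 nt farther at 31087, had 0 reads in each soybean oil library and 16, 21 and 0 on glucose, so it could be seen in glucose replicates 1 and 2 alone.

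Further falls came at the intron from 442702 to 442767 of scaffold 10 (plus strand), with 4, 16 and 4 reads with soybean oil and 171, 134 and 35 on glucose. Its log2 fold change was -3.93 (SE 0.65, edgeR adjusted p 0.00982), and without one library the adjusted p reached 0.0501. The paired-end soybean oil library held 1688 reads, or 667 RPM of junction reads, inside the glucose range of 214 to 889, and with it the call was lost (edgeR adjusted p 0.535). The intron from 121787 to 122247 of scaffold 15 (plus strand) fell by 1.38 on the log2 scale (SE 0.16, edgeR adjusted p 0.00236), with 34, 45 and 37 reads with soybean oil against 97, 100 and 78 on glucose. With the paired-end library the call was lost (edgeR adjusted p 0.0902). On scaffold 17 the intron from 970460 to 970619 (plus strand), the shorter of a pair with acceptors 3 nt apart, fell by 1.18 (SE 0.15, edgeR adjusted p 0.00421). It had 41, 60 and 40 reads with soybean oil and 102, 92 and 93 on glucose. The paired-end soybean oil library held 2569, or 1015 RPM of junction reads, above the 531 to 568 of the glucose libraries, and with it the call was lost (edgeR adjusted p 0.939).

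Among the rises, the intron from 549535 to 549828 of scaffold 9 (plus strand) had 113, 76 and 70 reads with soybean oil and 24, 27 and 28 on glucose, a log2 fold change of 1.59 (SE 0.30, edgeR adjusted p 0.0160). Leaving out a library kept that call in 4 of 6 fits. The paired-end soybean oil library held 202 reads, or 79.8 RPM of junction reads, below the 125 to 171 of the glucose libraries, and with it the call was lost (edgeR adjusted p 0.483). Its competitor, 3 nt longer, had 11, 0 and 3 reads with soybean oil and 2, 2 and 2 on glucose. On scaffold 4 the donor at 30001 (minus strand) joined acceptors at 29928 and 29898, 30 nt apart, and reads to both rose. They were 75, 75 and 54 with soybean oil against 38, 33 and 28 on glucose at the nearer one, a log2 fold change of 0.91 (SE 0.18, edgeR adjusted p 0.0219). At the farther one they were 60, 69 and 46 with soybean oil against 25, 35 and 23 on glucose, a log2 fold change of 0.93 (SE 0.23, edgeR adjusted p 0.0414). With a library left out, these calls were kept in 3 and 1 of 6 fits, and with the paired-end library both were lost (edgeR adjusted p 0.409 and 0.534). The split between them was even in both media, with 46.1% ± 1.74 to the farther acceptor with soybean oil and 45.4% ± 5.90 on glucose (SD, n = 3).

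Most of the 74 groups, 68, held 2 introns. The largest held 6 introns on scaffold 21 between 434582 and 435398 (plus strand). Its main introns were those at 434636 to 434956, with 40, 58 and 37 reads with soybean oil and 31, 24 and 15 on glucose, and at 435035 to 435398, with 31, 28 and 38 with soybean oil and 24, 11 and 8 on glucose. They leave an inner exon of 78 nt, a multiple of 3. An intron of 763 nt spanned both and left that exon out, with 5, 7 and 9 reads with soybean oil and 2, 3 and 0 on glucose. The paired-end library held 9 reads for it, and its anchors stayed at 17 nt. Another spanning intron, at 1066755 to 1067594 of scaffold 2 (plus strand), would skip an exon of 677 nt. It had 6, 0 and 8 reads with soybean oil and 0, 4 and 5 on glucose, with anchors of 10 nt, and the paired-end library did not list it. On scaffold 21 (minus strand) an intron at 545627 to 545812 spanned a pair that lie 3 nt apart. It had 2, 0 and 0 reads with soybean oil, 9, 4 and 0 on glucose and 35 in the paired-end library. The anchors of that pair reached 30 and 39 nt, longer than the 3 nt between them. Reads of each thus ran past that stretch, and an exon of 3 nt is not shown.

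Summed over all 84 sites, the less used introns took 23.0%, 24.3% and 23.4% of the reads with soybean oil and 19.5%, 19.3% and 21.8% on glucose. The groups did not overlap, but this sum rested on the scaffold 20 donor at 31000, whose leading intron had nearly all its reads on glucose. Without that site, chosen after the values were seen, it was 23.0%, 24.3% and 23.4% with soybean oil and 25.3%, 25.7% and 24.9% on glucose, the opposite order. At the 18 sites listed in full it was 37.6%, 36.8% and 37.5% with soybean oil and 39.1%, 38.5% and 38.6% on glucose.

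The split between competing introns in the paired-end library was set against that of the 6 main libraries. Those 6 cover both media and the paired-end library soybean oil alone, so medium and library type differ together here. The leading intron was the same at 76 of the 83 sites with paired-end reads. The share of the less used introns differed by a median of 5.81 percentage points, by at most 10 points at 55 sites and by more than 20 at 11. Across these sites, which are not independent samples, Pearson's r was 0.598. Among the 7 sites with another leader was the donor at 32914 of scaffold 23 (minus strand), where acceptors lie 81 nt apart. The less used intron of the 50 bp libraries had 0, 0 and 14 reads with soybean oil and 0, 0 and 0 on glucose, and 116 of 139 reads in the paired-end library (83.5%, 95% Wilson interval 76.4 to 88.7).

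Members near the limits of the rule were weakly read. Exactly 10 reads were found for 7 members, while 8 introns with 9 reads shared an end with a kept intron and were left out. The longest member was 955 nt long, with 11 reads, and the shortest intron over 1000 nt that shared an end with a kept one was 1129 nt long, with 381 reads. In all, 418 of the 1300 introns of 1 to 9 reads and at most 1000 nt shared an end with a kept intron.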

How the data were processed

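RNA of 9 libraries was sequenced, and junction lists were analysed. The deposited lists give whole-number counts of reads that span each junction, made with TopHat 1.4.1 per the submitters' processing notes, in positions of the authors' assembly, with its build not given in the sources used here. The scaffold numbers are the files' own. Deposited gene values were not used. The 2 lists of each stranded library differ in a way the labels do not explain. Intron positions, counted from 1, were worked out from the block sizes. Reads per intron were tested with edgeR 4.0.16 in R 4.3.3 (quasi-likelihood, TMM factors, Benjamini-Hochberg over 3199 introns of at least 10 reads), and usage with its differential splicing test and Simes p over 244 sites. Standard errors were taken from the F statistic. A call is an adjusted p under 0.05. Alternatives used limma 3.58.1 and DESeq2 1.42.0. The values in RPM were computed here from the deposited counts and each list's junction reads. Tests were checked on simulated counts. The members and lists were chosen with earlier results of these data known. Named sites were those with the smallest p, most reads per class, most even shares, spanning introns and largest groups, and named introns those with the largest called changes. The equal pairs of scaffolds 1 and 11 and the donor at 32914 of scaffold 23 were named after their values were seen. Replicate numbers did not pair the libraries: deviations of same-numbered libraries correlated at -0.08, 0.07 and 0.05 over 1614 introns.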

Additional observations from a re-analysis of the deposited data

Results flagged for a closer look

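The following 8 introns had at least 100 reads in the paired-end library and were missing from the 50 bp list that carries the same replicate number, a limit chosen after the data were examined. The intron of scaffold 21 at 330568 to 330844 had 5115 paired-end reads, and in the 50 bp lists 87, 0 and 142 with soybean oil and 0, 0 and 107 on glucose. The intron of scaffold 16 at 398109 to 398395 had 1990, and that of scaffold 17 at 970460 to 970622 had 664. The intron of scaffold 16 at 141696 to 142366 had 256, and that of scaffold 2 at 1835227 to 1835416 had 142. The introns of scaffold 23 at 32692 to 32914 and 232445 to 232522 had 116 and 110, and the intron of scaffold 20 at 13307 to 13369 had 100. With 1 paired-end library, no test across replicates was run, and the cause was not tested.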

How the results depend on the processing

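Members called in reads per intron numbered 15 of 159, and 10 to 14 with a library left out. They numbered 26 of 159 without a filter on reads, 22 of 159 with DESeq2 and 4 of 155 with the paired-end library for soybean oil replicate 2. Over all introns the 384 calls became 193 to 362 with a library left out, moving by over 1.5 times for each library but glucose replicate 3. They became 594 of 8340 tested without a filter, 521 of 3199 with DESeq2 and 72 of 4206 with the paired-end library. The share of members called was above that of all introns without a filter and with the paired-end library, and below it with DESeq2. Member sites called in usage numbered 0, and 0 to 1 with a library left out, the 1 being without glucose replicate 2, and 1 by limma voom. The 2 called sites of any length became 0 to 2 with a library left out (0 without soybean oil replicate 2 or glucose replicate 1 or 3). With introns in 6 lists alone, 0 of the 25 sites left were called. With introns of at most 1000 nt alone, 0 were called, but only the 84 member sites remain there. The 2 called sites are not among them, so this setting cannot bear on those calls. With the replicate number as a block, where the numbers share no more than a number, 282 introns, 11 of them members, and 0 sites were called. A minimum of 20 reads left 90 members, and leaving out a library 120 to 151. The summed share of less used introns, soybean oil minus glucose, was 3.36 percentage points (2.92 to 4.16 with a library left out). It was 2.18 as a median over sites, -1.45 at sites listed in full and -1.74 without the scaffold 20 donor. For competing acceptors 6.05 (5.78 to 6.53) became 2.50, -2.25 and 0.89 in these settings. For competing donors -5.19 (-6.10 to -4.50) became 4.73 as a median, -0.37 at sites listed in full and -3.27 without the scaffold 17 acceptor. Over all sites the difference was 3.59 without the scaffold 17 acceptor. Without sites that have an intron with anchors of at most 12 nt, it was 4.25 over all sites. In that setting it was 6.71 for competing acceptors and -5.92 for competing donors. Of 25 named sites with shares in both media, 6 had no overlap, and 6 to 11 with a library left out (11 without soybean oil replicate 1, 10 without soybean oil replicate 2 or glucose replicate 1), where fewer libraries are compared. With the paired-end library for soybean oil replicate 2, differences moved by more than the SD between libraries at 3 named sites, to -21.6 points at the scaffold 23 donor at 177972, -9.39 at the scaffold 17 acceptor and 10.5 at the scaffold 24 acceptor at 104488. At sites with a wide spread they also shifted, from 1.43 to -17.2 points at the scaffold 17 donor at 46978, from 16.7 to 27.7 at the scaffold 2 donor at 328674 and from -10.6 to -6.27 at the scaffold 23 donor at 232445. The median member had 56 reads in 6 libraries, so counting error on most shares per library is wide. The cause was not tested for any of these.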
